A study of Mus musculus with 3 samples.

Results

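The mitochondrial genome of the mouse encodes 37 genes, and all 37 were followed here in RNA from the chromatin fraction of macrophages. The members are every gene whose symbol begins with mt-, which are 13 coding genes, 2 rRNA genes and 22 tRNA genes of the 55536 genes in the tables. The macrophages were primary cells of strain C57BL/6J, grown from bone marrow and given lipid A, the part of bacterial endotoxin that Toll-like receptor 4 senses, at 100 ng/ml for 20 minutes. Total RNA of the chromatin fraction was depleted of ribosomal RNA and sequenced in 3 libraries of this single group, made from 1000 ng (replicate 1), 250 ng (replicate 2) and 500 ng (replicate 3) of starting RNA. No untreated cells and no cytoplasmic or whole-cell RNA belong to the samples used here, so levels in other fractions cannot be set beside these. The labels number the libraries as biological replicates without saying that they came from separate animals, so the spread between them may be partly technical.

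Mitochondrial DNA is circular and is read from both strands as long precursors that are cut, largely at tRNAs, into separate RNAs. The coding genes specify subunits of respiratory complexes I, III and IV and of ATP synthase (complex V), the rRNA genes the small and large RNAs of the mitochondrial ribosome, and the tRNA genes its tRNAs. Transcription takes place inside mitochondria, outside the nucleus, which is why the share of these RNAs in a chromatin preparation is used as a measure of carry-over. Stretches of mitochondrial DNA have also been copied into nuclear chromosomes, where annotations list them as pseudogenes.

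Nuclear copies can matter for the members that have one, and for sums that include them, because a read that matches both places equally well cannot be assigned. A search of annotated transcripts for shared words of 31 bases found 13 nuclear pseudogenes with at least 50 words in common with a member. Of the 13 coding genes, 10 had such a copy. Copies outside the annotation were not sought, so a member without a listed copy may still have one. A run of 7 of the 13 pseudogenes lies on chr1:24611535-24616197 (GRCm38, minus strand, 4663 bases). Of these 7, 6 matched their mitochondrial gene without a mismatch over the shared stretch. The first 60 bases of mt-Co3, subunit 3 of cytochrome c oxidase (complex IV), and of its copy Gm28437 are shown because no read within them can tell one gene from the other. The mt-Co3 stretch lies at chrM:8607-8666 on the plus strand, and that of Gm28437 at chr1:24613912-24613971 on the minus strand.
mt-Co3: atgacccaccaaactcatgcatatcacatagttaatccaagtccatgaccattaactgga
Gm28437: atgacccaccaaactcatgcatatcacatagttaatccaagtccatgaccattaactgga
The copies on other chromosomes have diverged. Gm13340 on chromosome 2 spans all of mt-Co1, the catalytic subunit 1 of cytochrome c oxidase, with 37 mismatches (97.6% identity). In the stretch from base 41 to base 100, at chrM:5368-5427 (plus strand) for mt-Co1 and at chr2:22589548-22589607 (minus strand) for Gm13340, the capitals mark the differences C54A, A60G and G87A, with positions counted from 1 at the 5′ end of mt-Co1 and the mt-Co1 base written first.
mt-Co1: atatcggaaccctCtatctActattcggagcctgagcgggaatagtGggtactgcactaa
Gm13340: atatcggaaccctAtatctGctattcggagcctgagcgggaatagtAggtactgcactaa
The sequences are those of the GENCODE M21 transcripts on GRCm38.

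The libraries held 16141381, 16196661 and 12398651 expected counts over annotated genes in replicates 1, 2 and 3. An expected count is the number of reads that the authors' quantification assigned to a gene, and it can be a fraction where reads fit several genes. At these depths the limit that a count of 0 sets, 3 counts, stood at 0.186, 0.185 and 0.242 CPM, the counts scaled to a total that is the same for every library. A second set of transcript tables, made from the same libraries by another quantification, held 25111219, 27695628 and 21058255 estimated counts when summed per gene. The cells carried macrophage markers, with 14 of 14 at 1 TPM or more in every library against 2 of 18 markers of other blood and connective tissue cells. TPM is a level per length scaled to a fixed total, so levels of different genes are compared only in TPM. The highest of the markers of other types was Pf4, a platelet chemokine gene, at 15.5 ± 5.4 TPM (SD, n = 3), and 4 of the 18 were at 0 in every library. In such bulk RNA, fewer cells of a type and less RNA per cell cannot be told apart.

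Mitochondrially encoded genes held 19319.8, 7983.0 and 5176.4 expected counts in replicates 1, 2 and 3, or 0.120%, 0.0493% and 0.0417% of the counts over annotated genes. Replicate 1 stood above the other two, whose values lay close together. The Wilson 95% intervals, which cover counting error only, were 0.118% to 0.121%, 0.0482% to 0.0504% and 0.0406% to 0.0429%, and no pair of them overlapped. The mean was 0.0702 ± 0.043% (SD, n = 3), and it was 0.0455% without replicate 1. With the counts of the nuclear copies added, a setting chosen for the shares after the values were seen, the 3 shares were 0.149%, 0.0559% and 0.0509%. The second tables gave 0.106%, 0.0395% and 0.0356%, with replicate 1 again above the others.

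Coding genes carried most of these counts, with 18690.8, 6960.0 and 4934.4 in replicates 1, 2 and 3. The 2 rRNA genes held 629.0, 1023.0 and 242.0 counts, which were 3.26%, 12.8% and 4.68% of the mitochondrial counts. The rRNA share was therefore highest in replicate 2, which had the middle total of mitochondrial counts. Its mean was 6.92 ± 5.16% (SD, n = 3), and 3.97% without replicate 2. The sources used here do not say whether the depletion of ribosomal RNA also covered the mitochondrial rRNAs. All 22 tRNA genes were listed at 0 counts in every gene table, but their effective length, the number of positions where a fragment could start, was also 0 there, so these zeros are not measurements.

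In complex IV, mt-Co1 had the highest level of all members in every library, at 330.5, 123.6 and 157.4 TPM in replicates 1, 2 and 3 (mean 203.8 ± 111.0, SD, n = 3). It alone held 12448.6, 3405.9 and 2838.0 expected counts, more than any other member. Its copy Gm29216, which covers the last part of the gene with a single mismatch, was assigned 0.63%, 1.99% and 0% of the counts of the pair. Adding the copy thus changes the mt-Co1 value little. The assigned shares do not show where the reads of this last part came from. The diverged copy Gm13340 held 1.02, 1.01 and 1.0 counts. The other complex IV genes could not be read this way. As deposited, mt-Co2, subunit 2 of the same enzyme, had 409.3, 0 and 0 expected counts, and mt-Co3 had 2.3, 588.7 and 1.7. Each of the 2 genes is high in a single library and at or near 0 in the others, in different libraries.

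The missing counts were in the copies. Of the summed counts of mt-Co2 and its copy Gm28661, 78.9%, 100% and 100% were assigned to the copy in replicates 1, 2 and 3. For mt-Co3 and Gm28437 these shares were 99.9%, 17.2% and 99.7%. For mt-Atp6, subunit a of ATP synthase, and Gm10925 they were 70.5%, 100% and 1.77%, and for mt-Nd3, a complex I subunit, and Gm28438 they were 52.4%, 55.7% and 100%. For mt-Nd4l, another complex I subunit, every count was assigned to Gm10222, so the gene was listed at 0 in all 3 libraries. The sum of each gene and its copies was a whole number, within 0.05 counts, in 21 of 21 cases, whereas the member alone was whole in 11 of 21. The 11 include members listed at 0. The division within a pair thus differed between libraries. Whole sums arise wherever reads are divided only between a gene and its copies, so they do not show where the reads came from. Whether any of these reads came from the nuclear copy cannot be told apart for the 6 exact copies.

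**Figure D1:**
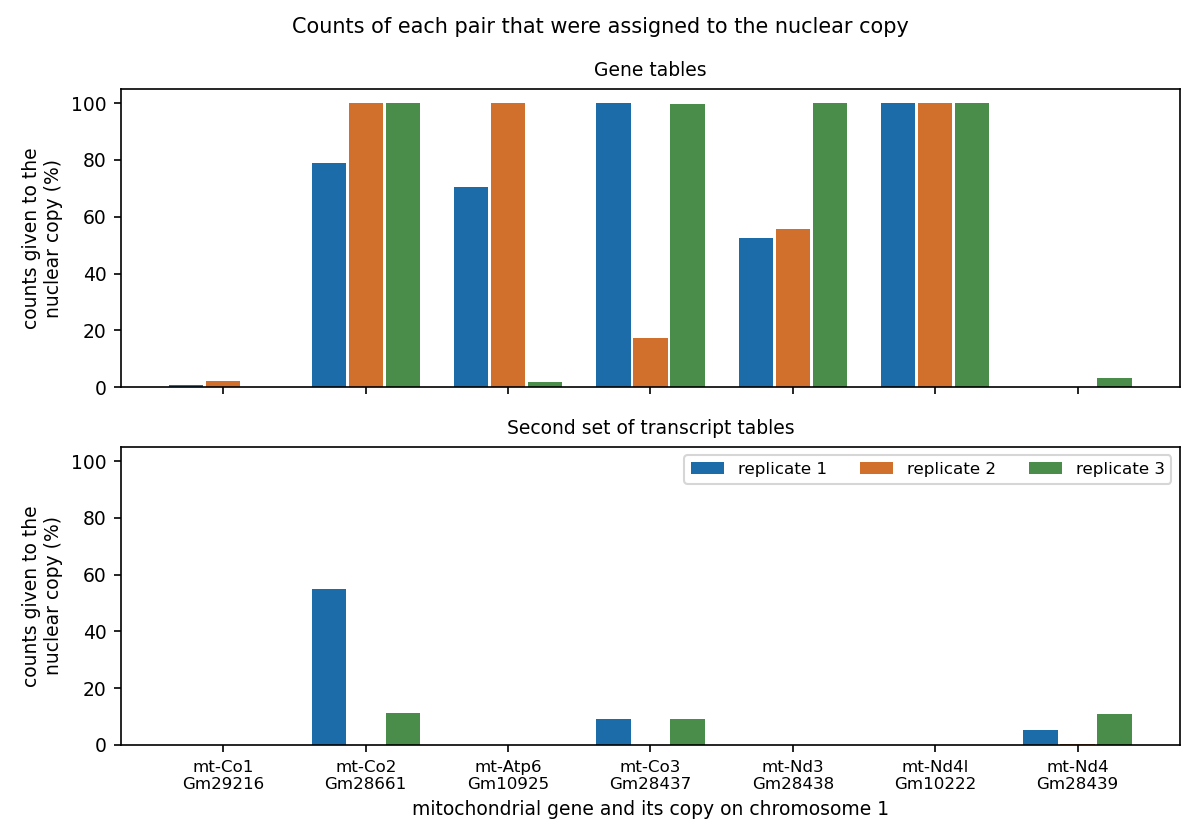
Percentage of the counts of each mitochondrial gene and its chromosome 1 copy that was assigned to the copy, in replicates 1, 2 and 3 (bars), for the gene tables (top) and the second tables (bottom). In the gene tables mt-Co2, mt-Atp6, mt-Co3, mt-Nd3 and mt-Nd4l lie anywhere from 1.77% to 100%, and in the second tables the highest bar is 55.0%, for mt-Co2 in replicate 1.

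The second tables divided the same pairs otherwise. They gave no count to the copies of mt-Atp6, mt-Nd3 and mt-Nd4l in any library, so mt-Nd4l had 203, 90 and 82 estimated counts there. The copy of mt-Co2 received 55.0%, 0.01% and 11.1% of its pair, and that of mt-Co3 received 9.03%, 0% and 9.17%. All copies together held 19.4%, 11.9% and 18.04% of the counts of members and copies in the gene tables, against 5.46%, 0.05% and 2.16% in the second tables. The 6 copies on chromosomes other than 1 held 1.02, 1.01 and 1.0 counts together in the gene tables, so nearly all of the counts in copies were on chromosome 1. The gene tables hold an interval in TPM of unstated level, and for mt-Nd4l it reached 36.9, 27.8 and 53.2 at its upper bound although its TPM was listed at 0. For mt-Co1 the upper bounds of 323.45, 120.81 and 148.6 lay below the listed TPM in replicates 1, 2 and 3. The listed TPM of mt-Co3 lay below the lower bounds of 14.4 and 3.11 in replicates 1 and 3.

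Levels were therefore recomputed from the summed counts of each member and its copies, divided by the member's effective length and scaled as in its library. On this scale mt-Co2 had 141.5, 53.8 and 65.0 TPM in replicates 1, 2 and 3, and mt-Co3 had 137.6, 62.3 and 81.7. Both now lay above most other members in every library, and no coding gene was at 0. The profiles of the 15 coding and rRNA genes, as log2(TPM + 0.1), became more alike between libraries. Pearson's r was 0.88, 0.92 and 0.84 with copies added, for replicates 1 and 2, 1 and 3, and 2 and 3. As deposited it was 0.41, 0.67 and 0.53. On this scale a level of 0 lies far below the other levels, so the zeros weigh on the values as deposited. Spearman's rho, which uses ranks only, was 0.92, 0.96 and 0.93 for the same pairs with copies added. As deposited it was 0.59, 0.78 and 0.62. These correlations run across 15 genes of the mitochondrial genome that share a library and a scaling, and are given as a description.

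**Figure D2:**
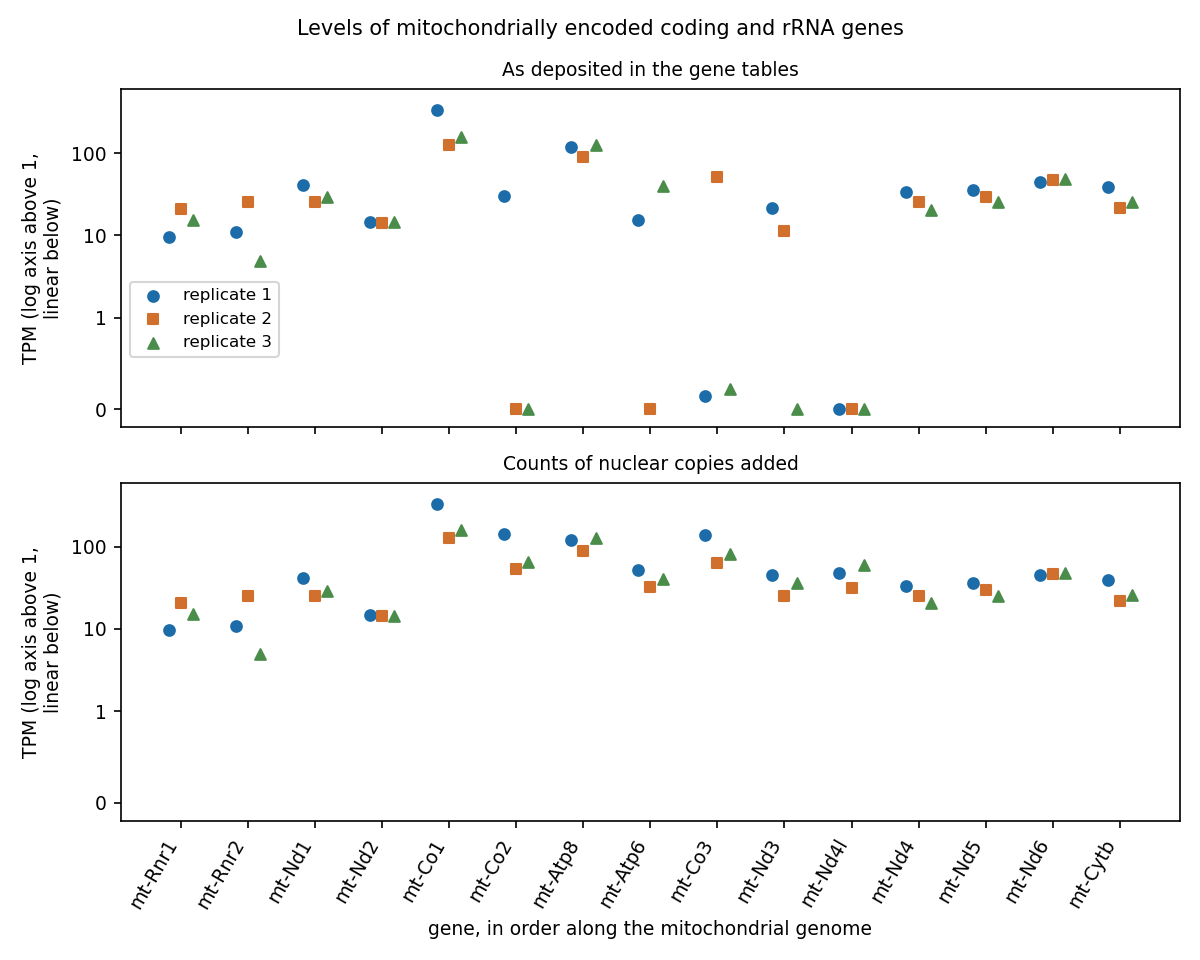
TPM of the 13 coding and 2 rRNA genes in the order of the mitochondrial genome, with 1 point per replicate, as deposited (top) and with the counts of the nuclear copies added (bottom), on an axis that is linear below 1 and logarithmic above it. Some points of mt-Co2, mt-Atp6, mt-Co3, mt-Nd3 and mt-Nd4l are at or near 0 in the top panel, and all points of these genes lie between 25.3 and 141.5 TPM in the bottom panel.

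With copies added, the order of mean levels began with mt-Co1 (205.4 ± 111.3 TPM), mt-Atp8 (111.4 ± 19.6), mt-Co3 (93.9 ± 39.1) and mt-Co2 (86.8 ± 47.7; SD, n = 3 for each). mt-Co1 and mt-Co3 kept the first and the third rank in each of the 3 libraries, but the SDs of neighbours among the first 4 overlap. A middle group from mt-Nd6 (46.4 ± 1.4) to mt-Nd4 (26.5 ± 6.4) followed, in which neighbours did not differ beyond their spread. mt-Rnr1, mt-Nd2 and mt-Rnr2 came last, at 15.2 ± 5.5, 14.5 ± 0.2 and 13.7 ± 10.4 TPM. mt-Nd2 was the lowest coding gene in every library, both with copies added and in the second tables. The median of the 13 coding genes was 33.4, 25.2 and 25.3 TPM as deposited, and 44.9, 31.7 and 40.9 TPM with copies added.

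Complex IV genes held 71.8%, 58.3% and 63.3% of the coding counts with copies added in replicates 1, 2 and 3. The 7 complex I genes held 20.2%, 32.3% and 26.8%, mt-Cytb, the complex III subunit cytochrome b, 4.44%, 5.16% and 5.24%, and the 2 ATP synthase genes 3.62%, 4.22% and 4.68%. Replicate 1 thus had the largest complex IV share and the smallest complex I share. The second tables gave 71.6%, 58.1% and 62.9% for complex IV and 20.2%, 32.5% and 27.1% for complex I.

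Among the complex I genes without an annotated copy on chromosome 1, mt-Nd1 had 876, 384 and 285 expected counts and mt-Nd5 1627, 983 and 554, both highest in replicate 1. mt-Nd2 had 345, 240 and 159 counts, and its CPM differed least between libraries among the coding genes. mt-Nd4 had 1102, 605 and 317.1 counts, and its copy Gm28439, which matches its first 876 bases, held 0, 0 and 9.91. mt-Nd3 had 95.6, 27.4 and 0 expected counts as deposited, and 201, 62 and 58 with its copy added, again highest in replicate 1. mt-Cytb had 1035, 415 and 318 counts, or 39.0, 21.8 and 25.5 TPM. Its copy Gm11410 on chromosome 4 held no counts in the gene tables.

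The ATP synthase genes mt-Atp8 and mt-Atp6 share part of their sequence in different reading frames. The stretch at chrM:7917-7979 (plus strand) is shown because its 43 bases in capitals belong to both genes, from the start codon of mt-Atp6 on.
mt-Atp8 and mt-Atp6: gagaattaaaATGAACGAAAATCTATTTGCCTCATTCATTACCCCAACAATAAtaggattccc
mt-Atp8 had 127, 41 and 37 expected counts. Its second place in the order rests on an effective length of 38.4, 21.6 and 21.1 bases (118.8, 89.3 and 126.2 TPM in replicates 1, 2 and 3). In the second tables, where its effective length was 61.1, 58.9 and 59.7 bases, it had 89.9, 30.0 and 45.0 TPM. mt-Atp6 had 212.0, 0 and 242.6 expected counts as deposited, and 718, 298 and 247 with its copy added. With the copy added its count was lowest in replicate 3, where its TPM was not the lowest.

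mt-Nd6, a complex I subunit, is the only coding gene on the minus strand. It had 411, 270 and 182 expected counts, and its level was 44.9, 46.5 and 47.8 TPM in replicates 1, 2 and 3. These TPM values were close together, whereas its CPM was 25.5, 16.7 and 14.7 and in the second tables its TPM was 49.8, 34.2 and 36.9, both highest in replicate 1. Its log2(TPM + 0.1) exceeded the median of the 12 other coding genes by 0.51, 0.98 and 1.08 as deposited (mean 0.86 ± 0.31, SD, n = 3). With copies added the differences were -0.04, 0.61 and 0.32 (mean 0.29 ± 0.32), and the second tables gave 0.01, 0.56 and 0.38. The higher level of mt-Nd6 as deposited thus shrank to within the spread between libraries once the copies' counts were added, and with 3 libraries the smallest p that an exact two-sided sign-flip test allows is 0.25. The sources used here do not state the use of strand, so reads of the opposite strand in mt-Nd6, including where it overlaps the end of mt-Nd5, cannot be told apart.

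The rRNA genes behaved unlike the coding genes. mt-Rnr1, the 12S rRNA of the small ribosomal subunit, had 206, 311 and 151 expected counts, and mt-Rnr2, the 16S rRNA of the large subunit, had 423, 712 and 91. Both were highest in replicate 2, although replicate 1 had the most counts of every coding gene once copies were added. No annotated nuclear copy that passed the limit of 50 shared words matched either gene. Per length, mt-Rnr2 stood to mt-Rnr1 as 1.13, 1.21 and 0.32 to 1 in replicates 1, 2 and 3, so replicate 3 differed from the others. The second tables listed more reads for mt-Rnr2, with 1090, 995 and 234 estimated counts and 294, 376 and 198 for mt-Rnr1, and there mt-Rnr2 had its highest count in replicate 1.

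tRNA genes, of 59 to 75 bases, were counted only in the second tables, with 44, 19 and 30 estimated counts in all in replicates 1, 2 and 3. These were 0.165%, 0.174% and 0.400% of the mitochondrial counts, with Wilson 95% intervals of 0.123% to 0.221%, 0.111% to 0.271% and 0.280% to 0.570%. A count was present for 13 of the 22 genes in some library and for 9 in none. The 8 tRNA genes on the minus strand held 44, 13 and 27 of the counts, and the 14 on the plus strand 0, 6 and 3. All 8 minus-strand genes had a count in some library, against 5 of the 14 plus-strand genes. mt-Ts1, a serine tRNA gene, was the only one above 3 counts in every library, with 16, 5 and 16. The next by mean count were mt-Tc (cysteine) with 11, 0 and 4, mt-Te (glutamate) with 9, 2 and 3, and mt-Tp (proline) with 4, 4 and 1. They are named here after their values were seen. The other 18 tRNA genes had 0 to 3 counts in each library.
These 4 genes are shown 5′ to 3′ on their own, minus strand, since they hold most of the tRNA counts, at chrM:6870-6938, chrM:5192-5257, chrM:14071-14139 and chrM:15356-15422, and the capitals in mt-Ts1 mark the bases that overlap the end of mt-Co1 on the opposite strand.
mt-Ts1: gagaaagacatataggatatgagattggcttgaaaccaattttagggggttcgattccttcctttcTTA
mt-Tc: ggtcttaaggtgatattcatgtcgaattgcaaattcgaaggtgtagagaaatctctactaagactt
mt-Te: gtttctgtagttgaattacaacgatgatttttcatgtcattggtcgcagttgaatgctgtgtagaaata
mt-Tp: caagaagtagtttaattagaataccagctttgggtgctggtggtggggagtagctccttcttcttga
Without a statement on strand, reads of these tRNAs and of the precursor of the opposite strand cannot be told apart.

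**Figure D3:**
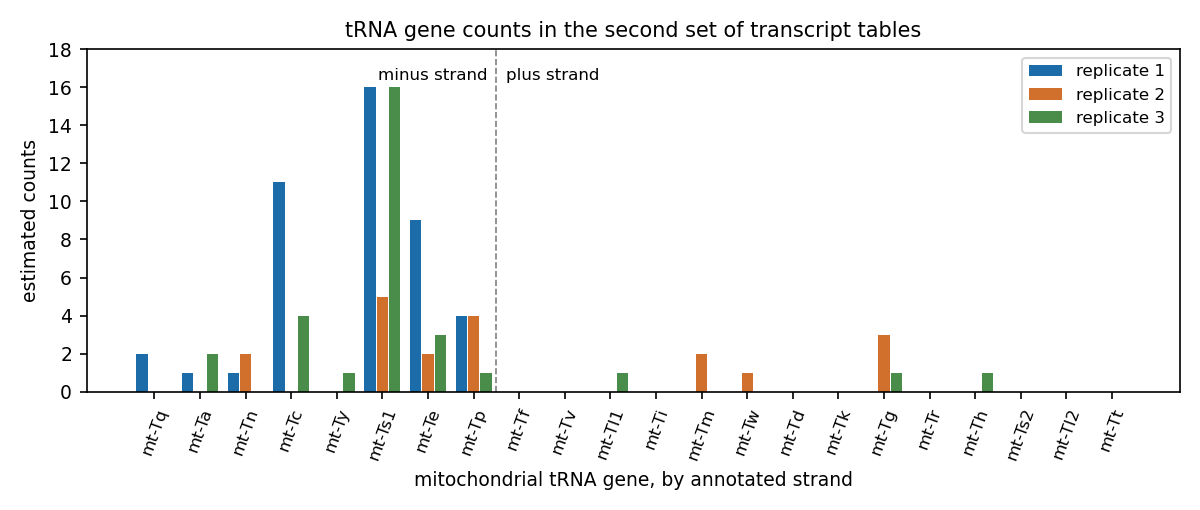
Estimated counts of the 22 tRNA genes in the second tables, with 1 bar per replicate, the 8 minus-strand genes left of the dashed line and the 14 plus-strand genes right of it. mt-Ts1 reaches 16 counts in replicates 1 and 3, and no plus-strand gene exceeds 3.

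All mitochondrial genes together had 2.43 times as large a share of the counts in replicate 1 as in replicate 2, and 2.87 times as large a share as in replicate 3, while lists of nuclear genes of related function had ratios near 1. With 1 library per amount of RNA this difference from the nuclear lists has no test. The CPM of the 13 coding genes with copies added was 1.44 to 3.90 times as high in replicate 1 as in replicate 2 (median 2.50), and 1.67 to 3.78 times as high as in replicate 3 (median 2.50). mt-Co2, mt-Co1, mt-Nd3 and mt-Co3 had the widest ratios to replicate 2, at 3.90, 3.62, 3.25 and 3.21, and mt-Nd2, mt-Nd6 and mt-Nd5 the narrowest, at 1.44, 1.53 and 1.66. The share of counts of 80 nuclear genes of oxidative phosphorylation, which specify nuclear subunits of the same complexes and also those of complex II and cytochrome c, was 0.0496%, 0.0462% and 0.0572%, with ratios of 1.07 and 0.87. For 31 nuclear genes of mitochondrial transcription, RNA handling and DNA maintenance, whose highest was the mitochondrial DNA polymerase gene Polg at 35.9 ± 7.0 TPM (SD, n = 3), the ratios were 1.02 and 0.86. For 85 cytosolic ribosomal protein genes they were 0.97 and 0.92.

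Genes whose mature mRNAs are abundant in the cytosol were set beside the members. Their counts at chromatin also hold nascent RNA, which was not separated here. The 8 genes of this list, from Fth1 (ferritin heavy chain, 555.3 ± 192.4 TPM) to Gapdh (15.4 ± 6.8 TPM; SD, n = 3), held 0.207%, 0.171% and 0.169% of the counts. Replicate 1 was highest here too, by 1.21 and 1.22 times in the summed share of counts, against 2.43 and 2.87 times for all mitochondrial genes. The median level of the 8 genes was 143.6, 172.9 and 147.1 TPM in replicates 1, 2 and 3, so highest in replicate 2. The 14 macrophage markers had ratios of 1.22 and 1.06 in the summed share. The 7 long noncoding RNAs that are known to stay in the nucleus, led by Malat1, held 12.2%, 10.9% and 15.8% of the counts, with ratios of 1.12 and 0.77. In every library the mitochondrial genes thus held far fewer counts than these RNAs, and fewer than the 8 cytoplasmic mRNAs.

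**Figure D4:**
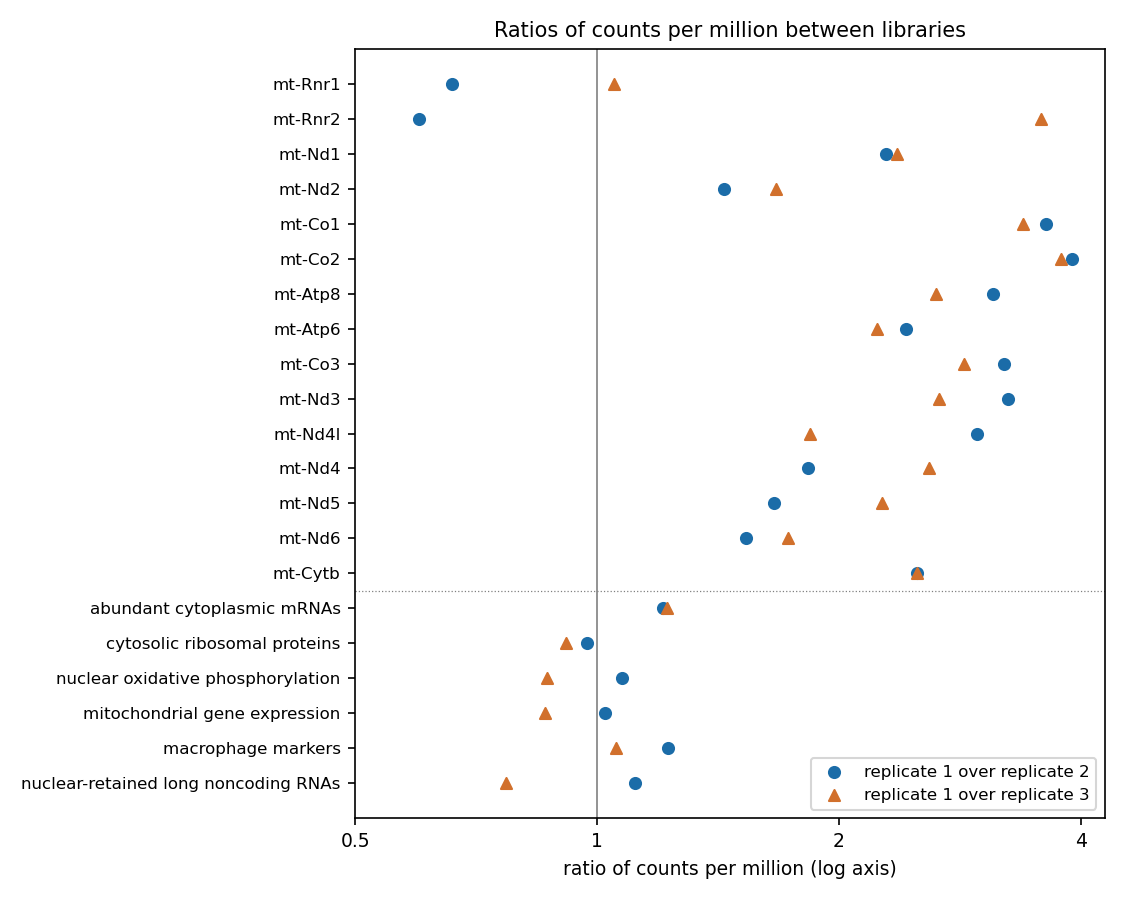
Ratios of CPM in replicate 1 to replicate 2 (circles) and to replicate 3 (triangles) on a logarithmic axis, for each coding and rRNA gene with copies added (above the dotted line) and for the summed counts of 6 nuclear lists (below it). All 13 coding genes lie at 1.44 or more, and the nuclear lists lie between 0.77 and 1.22.

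The size of the excess of replicate 1 depended on the scale, and 3 genes did not show it on every scale used here. The median ratios of the 13 coding genes with copies added were 1.61 to replicate 2 and 1.42 to replicate 3 in TPM. In CPM both were 2.50. In CPM, in CPM with TMM factors and in TPM rescaled over coding genes, 13 of 13 coding genes with copies added were highest in replicate 1, as they were in the second tables. On the TPM scale of the gene tables, also with copies added, 10 of 13 were, and mt-Nd6, mt-Atp8 and mt-Nd4l were highest in replicate 3. Among the 10, mt-Nd2 was nearly level, at 14.6, 14.3 and 14.5 TPM in replicates 1, 2 and 3. The 2 rRNA genes were highest in replicate 2 on every scale of the gene tables. In the second tables mt-Rnr2 was highest in replicate 1. No scale used here was set by the entries without a gene, which are ERCC spike-ins, phiX and numeric identifiers. Their part of each library was also largest in replicate 1, at 1.08%. It was 0.299% in replicate 2 and 0.332% in replicate 3. Numeric identifiers held only 40 counts in replicate 1, 24 in replicate 2 and 19 in replicate 3. How the excess stands on a scale set by these entries was not tested. With TMM factors the log2 range between libraries was 0.89 for mt-Nd2 to 2.98 for mt-Rnr2 with copies added, against a median of 0.48 over the 14979 genes tested.

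Coding genes of the mitochondrion stood above their nuclear partners in level. The median log2(TPM + 0.1) of the 13 coding genes exceeded that of the 80 nuclear oxidative phosphorylation genes by 3.70, 3.27 and 2.37 in replicates 1, 2 and 3 (mean 3.11 ± 0.68, SD, n = 3), with the same sign in 3 of 3 libraries. The median level of the nuclear genes was 2.47, 2.52 and 4.81 TPM, and 53 of the 80 reached 1 TPM in every library. Their highest gene was Sdha, the flavoprotein subunit of complex II, at 39.0 ± 9.0 TPM. The lowest measured was Ndufa4l2 at 0.04 ± 0.04 TPM (SD, n = 3).

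The single labelled number that differs between libraries is the amount of starting RNA, and a slope on its log2 was fitted across all genes with edgeR's quasi-likelihood test. Of the 37 members, 12 passed the filter on low counts (10 coding and 2 rRNA), and 0 of them passed an adjusted p of 0.05 (Benjamini-Hochberg). Over all 15065 genes tested, 0.584% passed (0.551% rising and 0.0332% falling). At an unadjusted p under 0.05 there were 6 of the 12 members and 1017 of the 15065 genes. DESeq2 called 0 members where it called 0.424% of all genes. With copies added, all 13 coding genes were tested and 0 were called, where the background was 0.741% of 14979 genes. edgeR with DESeq2 size factors called 0 members and 0.85% of all genes, and in the second tables it called 0 members and 0.66% of all genes. Without a filter on low counts 5 coding genes were called, and 1.17% of all genes, namely mt-Co1, mt-Co2, mt-Atp6, mt-Co3 and mt-Nd3. Of these, mt-Co2, mt-Atp6, mt-Co3 and mt-Nd3 are divided with an exact copy in the gene tables. Only one library was made per amount, so amount and library cannot be told apart, and the fit has 1 residual degree of freedom.

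For mt-Co1 the CPM with TMM factors and copies added was 250.8 at 250 ng, 201.1 at 500 ng and 759.6 at 1000 ng. The value at 1000 ng was the highest on this scale and in CPM without those factors, where the values were 214.6, 229.0 and 776.2 at 250, 500 and 1000 ng. The order of the 2 lower amounts differed between these scales. The slope was 0.81 per doubling of RNA in the counts as deposited (adjusted p = 0.163, edgeR), and -0.32 without replicate 1, with no test possible in 2 libraries. For mt-Cytb the slope was 0.54 (adjusted p = 0.431, edgeR) and -0.44 without replicate 1. mt-Nd6 had a slope of 0.18 (adjusted p = 0.998, edgeR), and -0.62 without replicate 1. The rRNA genes had slopes of the other sign, -0.43 for mt-Rnr1 (adjusted p = 0.669, edgeR) and -0.51 for mt-Rnr2 (adjusted p = 0.888, edgeR), which were 0.23 and 1.99 without replicate 2. The median slope of the 13 coding genes with copies added was 0.54, from 0.14 to 0.86, against 0.004 over all genes tested.

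The slope was also fitted for the copies themselves. Of 6 copies that passed the filter in the gene tables, 1 was called, Gm28437, with a slope of 1.97 per doubling (adjusted p = 0.000115, edgeR). Over all 15065 genes tested there, 0.584% were called. For the sum of mt-Co3 and Gm28437, which holds 2271, 711 and 610 counts in replicates 1, 2 and 3, the slope was 0.72 and the adjusted p was 0.111 (edgeR). Of 3 copies that passed the filter in the second tables, 2 were called, where 0.66% of all 23931 genes tested were called. Gm28437 had a slope of 2.79 there (adjusted p = 0.00127, edgeR), where its share of the mt-Co3 pair was 9.03%, 0% and 9.17%. Gm28661 had a slope of 4.76 (adjusted p = 6.14e-09, edgeR), where its share of the mt-Co2 pair was 55.0%, 0.01% and 11.1%. For these copies the division of reads within a pair and a change of nuclear RNA cannot be told apart.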

How the data were processed

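Expected counts and TPM per gene were deposited by the authors in gene tables laid out like those of RSEM, with a signal column pair deposited by the authors as bounds of a TPM interval. Estimated counts and TPM per transcript were deposited in a second set of tables laid out like those of kallisto, and were summed per gene here. The tables refer to mm10 and annotation M21, per the labels and the archive's text listing. The sources used here do not name the tools, the aligner or the strand setting. All 55536 gene identifiers matched GENCODE M21 on GRCm38. 86 of them are not in the second tables and were set to 0. Entries without a gene (96 ERCC spike-ins, phiX and 26248 numeric identifiers) were left out (1.08%, 0.299% and 0.332% of each library's expected counts). Totals over annotated genes were 16141381, 16196661 and 12398651 expected counts.

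The members and lists were chosen with earlier results of these data known. All members are accounted for, with values per library for coding and rRNA genes and ranges for tRNA genes. The extremes of each other list are its highest and lowest measured gene by mean TPM. Nuclear copies are genes with at least 50 words of 31 bases in common with a member, and their counts were added to that member as an alternative. For levels, the summed count was divided by the member's effective length. The slope was fitted to rounded expected counts with edgeR's quasi-likelihood test (edgeR 4.0.16 under R 4.3.3), after filterByExpr and TMM scaling, with the log2 of the starting RNA as the covariate and Benjamini-Hochberg adjustment over all genes tested. The fit was tested on simulated data. DESeq2 1.42.0, Python 3.11.15, numpy 2.4.6, pandas 2.3.3, scipy 1.17.1, Biopython 1.88 and matplotlib 3.10.9 were also used. Intervals are Wilson 95% intervals, which cover counting error only. There is 1 group, so no groups were compared.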

Additional observations from a re-analysis of the deposited data

How the results depend on the processing

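The share of counts held by mitochondrial genes, 0.0702%, was 0.0604% in the second tables, 0.111% over nuclear coding genes only, 0.0851% with copies added and 0.0455% to 0.0845% with a replicate left out. The tRNA share of 0 in the gene tables was 0.246% in the second tables. The median coding level of 27.9 TPM was 35.8 in the second tables, 39.2 with copies added and 151.0 after rescaling over coding genes. The mt-Nd6 difference of 0.86 (log2) was 0.32 in the second tables and 0.29 with copies added, and the difference of coding from nuclear genes, 3.11, was 2.22 in the second tables. Copies added was chosen after seeing the data for all but the slopes. Without a filter on low counts, 5 members passed the slope test in place of 0 (mt-Co1, mt-Co2, mt-Atp6, mt-Co3 and mt-Nd3), where 1.17% of 24261 genes passed, and the cause was not tested. The slope test over all genes called 88, and 128 with DESeq2 size factors. With a replicate left out, slopes ran from -0.32 to 1.91 for mt-Co1, from -0.62 to 0.95 for mt-Nd6, from -0.44 to 1.48 for mt-Cytb, from -1.10 to 0.23 for mt-Rnr1 and from -3.02 to 1.99 for mt-Rnr2, whose slope was 0.021 in the second tables. No paired analysis was possible because the labels give 1 group only. The tRNA genes are limited by their effective length of 0 in the gene tables. In the second tables their counts were few, and 3 counts separate a count from 0.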
